A study of Mus musculus with 6 samples.

Results

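The Adam genes encode a disintegrin and a metalloprotease domain in 1 membrane protein. In the table of cleavage and polyadenylation sites (pAs), 30 genes carried a symbol made of Adam and a number with or without a letter, of 17132 genes in all, and they held 140 of 73540 pAs. None of the 140 pAs was assigned to another gene as well. By what is known of them, 18 members were placed as sperm-type (Adam1a, Adam1b, Adam2, Adam3, Adam5, Adam6a, Adam6b, Adam18, Adam21, Adam24, Adam25, Adam26a, Adam26b, Adam29, Adam30, Adam32, Adam34 and Adam39), 11 as widely expressed (Adam8, Adam9, Adam10, Adam11, Adam12, Adam15, Adam17, Adam19, Adam22, Adam23 and Adam33), and Adam7 as an epididymal gene. Whole testes of FVB mice, with no treatment or transgene named, were profiled by 3'READS, which sequences the 3' ends of polyadenylated RNA, at 1 to 6 weeks (w) after birth. There was 1 library per week, so the 1-3w and the 4-6w libraries were compared as 2 groups of 3, and the spread within a group held age as well as error. Whether a library came from 1 animal or from several is not given in the sources used here.

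The protease domain of an ADAM protein can cut the extracellular part off other membrane proteins (shedding), and the disintegrin domain can bind integrins. Adam10 and Adam17 encode the main sheddases of most tissues and act on Notch receptors and on ligands of the epidermal growth factor receptor. The sperm-type members are made in male germ cells. In the mouse, ADAM2 pairs with ADAM1A or ADAM1B (fertilin), and ADAM3 is needed for sperm to pass from the uterus to the oviduct and to bind the zona pellucida. Several sperm-type members have lost the residues of an active protease, and others are of unknown function. Male germ cells of the first wave enter meiosis in the second week after birth, become round spermatids from the third and elongate from the fourth.

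The 2 classes changed places between 2w and 3w. At 1w the widely expressed members held 1840 of the reads in the 3'-most exons of Adam genes, which was 99.5% of them, and at 2w 95%. At 3w the sperm-type members held 3413 reads or 91.6%, and from 4w to 6w between 97.2% and 98.3%. In RPM, the reads of a gene scaled to a library of 1e+06 poly(A) site-supporting (PASS) reads, the sperm-type members summed to 1.96, 9.68, 743, 945, 978 and 881 from 1w to 6w, and the widely expressed members to 400, 226, 67, 26.8, 17.3 and 17.6. A transcript gives 1 read at its 3' end whatever its length, so levels of different genes were compared without a length term.

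Cell type markers changed over the same 6 weeks, at steps of their own. Summed RPM of the 6 spermatocyte markers was 1100, 9721, 11027, 7335, 5117 and 3737 from 1w to 6w, and most of it was Sycp3, with 9621 RPM at 2w. The 6 spermatid markers (Prm1, Prm2, Tnp1, Tnp2, Acrv1 and Spaca1) summed to 443, 67.5 and 533 RPM at 1w to 3w, and to 83749, 158385 and 186964 RPM at 4w to 6w. Most of the 1w sum was Tnp1 and Prm1, at 255 and 173 RPM, and the source of these early reads was not tested. The 5 Sertoli markers found in the table stood at 668, 133 and 13.7 RPM in the 1w, 3w and 6w libraries. The 4 peritubular and vascular markers stood at 977 and 82.4 RPM in the first and the last week. The 5 spermatogonial markers stood at 1565 and 116 RPM in the same weeks. Of these sums Uchl1 alone gave 1524 and 109 RPM, and Gfra1 went the other way, from 0 to 2.57 RPM. The 4 Leydig markers found stood between 222 and 472 RPM, and the 4 of macrophages and lymphoid cells between 7.57 and 36.1. The testis label was met by these lists, and no marker found in the table was at 0 in all libraries. In whole testis, fewer cells of a type and less RNA per cell cannot be told apart, and the part of the changing cell mix in the results below was not tested.

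**Figure D1:**
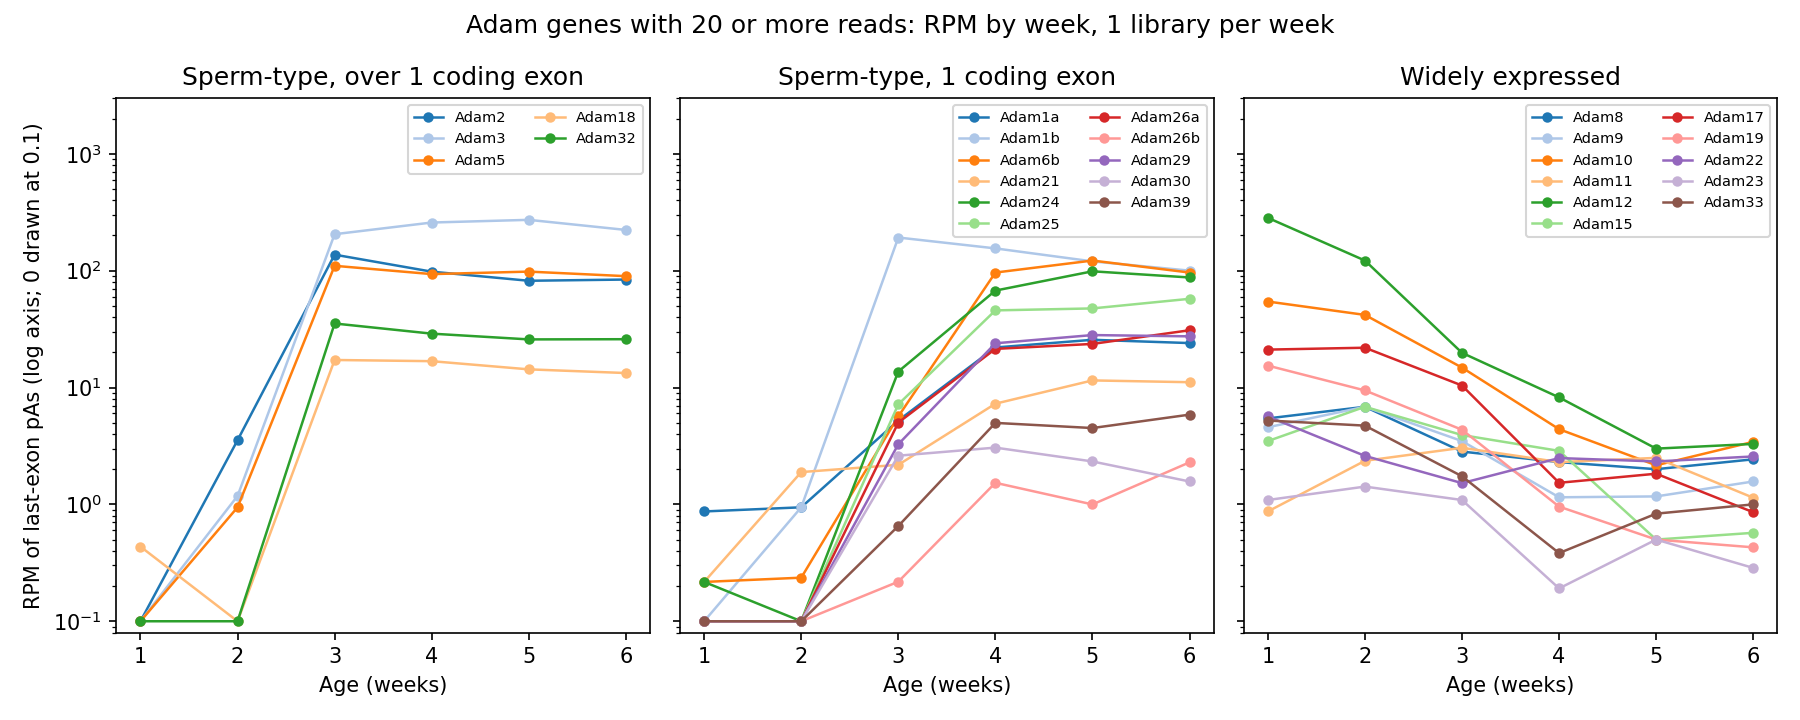
RPM of last-exon pAs (log axis, values of 0 drawn at 0.1) against age in weeks for the 27 Adam genes with at least 20 reads, 1 library per week, in 3 panels by class and number of coding exons. The 5 sperm-type genes with more than 1 coding exon are near their later level by 3w, most single-coding-exon genes climb between 3w and 4w, and Adam12 falls from 283 to 3.29 RPM.

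Of the 30 members, 24 had enough reads to be tested between the groups. By edgeR's quasi-likelihood test, 7 members were higher at 4-6w and 4 were lower at an adjusted p under 0.05. All 7 that rose were sperm-type members and all 4 that fell were widely expressed. The classes were set by what was known of the genes, so this split is a description and not a test of them. Over all 11269 genes tested, 17.7% were called higher and 22.5% lower, and the median log2 change was -0.07. The median was 4.13 over the 15 sperm-type members tested and -0.65 over the 9 widely expressed members tested, which describes only the members that passed the filter on low counts. The table's scale matters for these numbers, since scaling by the study's PASS totals in place of TMM moved the median of all genes to -1.38 and those of the sperm-type and widely expressed members to 2.79 and -1.91; under it 8 members were called higher and 5 lower, against 9.6% and 54.9% of all genes. Without the 5w library, and likewise without the 6w library, 0 members were called; without the 5w library, 338 genes in all were called higher and 0 lower.

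**Figure D2:**
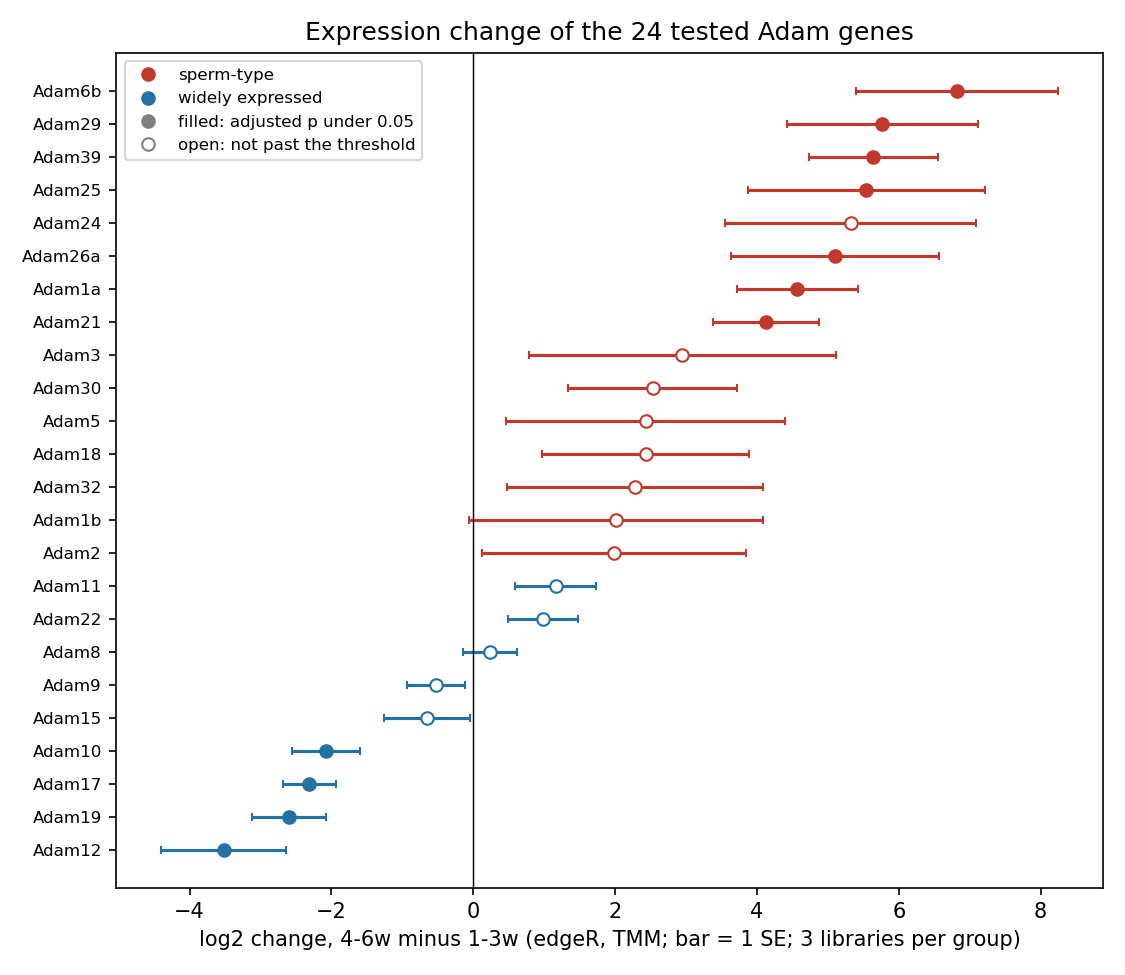
log2 change from 1-3w to 4-6w (x axis; edgeR with TMM, bars of 1 SE, 3 libraries per group) for the 24 Adam genes tested. All 15 sperm-type members lie above 0 and 7 of them passed the threshold; the 4 that fell, Adam10, Adam12, Adam17 and Adam19, are widely expressed.

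Adam3 was the most abundant member, with 0, 5, 943, 1350, 1632 and 1560 reads at its single last-exon pA from 1w to 6w. It lies with Adam18, Adam5 and Adam32 in 1 run of genes on the minus strand of chromosome 8 (from 25712718, the 3' end of Adam18, to 26059276, the 5' end of Adam32, in mm9), next to the widely expressed Adam9. The 3w library already stood with the later weeks, and the first 2 weeks were near 0. Adam5, whose product is a testis protein close to ADAM3, had 0, 4, 506, 488, 589 and 628 reads. Adam32 had 0, 0, 162, 151, 155 and 181 reads, and Adam18 had 2, 0, 79, 88, 86 and 93. In RPM these 3 genes were highest at 3w, and their groups overlapped because of that week.

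Adam2, which encodes the fertilin beta subunit, had 0, 15, 630, 512, 492 and 587 reads, and was the sperm-type member with most reads at 2w. Adam1b, 1 of the 2 genes for its alpha partner, had 0, 4, 883, 810, 720 and 701 reads. The other alpha gene, Adam1a, which lies next to it on the minus strand of chromosome 5, followed another course, with 4, 4, 24, 115, 154 and 168 reads. At 3w Adam1b had 192 RPM against 5.22 RPM of Adam1a, and at 6w 100 against 24. Adam1a rose between the groups (log2 change 4.57 ± 0.85 SE, n = 3 and 3, adjusted p = 0.0159 by edgeR), and its RPM did not overlap between them. Of all genes tested, 14.3% had all 3 libraries of 4-6w above all 3 of 1-3w in RPM.

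The 6 members that were near their later level at 3w did not pass the test. Their log2 changes were 2.95 ± 2.17 for Adam3, 2.43 ± 1.97 for Adam5, 2.43 ± 1.46 for Adam18, 2.28 ± 1.80 for Adam32, 2.01 ± 2.07 for Adam1b and 1.99 ± 1.86 for Adam2, with adjusted p from 0.203 to 0.435 by edgeR. Without the 3w library all 6 were called, at log2 changes from 7.22 for Adam2 to 10.91 for Adam32 and adjusted p of at most 4.4e-05 by edgeR, in a fit that called 35.8% of all genes higher. Adam30, a single-exon gene of low level, had 0, 0, 12, 16, 14 and 11 reads and was likewise not called (2.53 ± 1.19, adjusted p = 0.122 by edgeR).

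The other sperm-type members with enough reads rose from 3w to 4w. Adam6b had 1, 1, 26, 503, 732 and 674 reads, with 5.66 RPM at 3w and 96.3 RPM at 4w. Its log2 change of 6.82 ± 1.42 was the largest of the 24 members tested (adjusted p = 0.019 by edgeR). Adam29 had 0, 0, 15, 125, 169 and 192 reads, and rose by 5.77 ± 1.35 on the log2 scale (adjusted p = 0.0227). Adam21, known as a testis member of the family, had 1, 8, 10, 38, 69 and 78 reads and rose by 4.13 ± 0.75 (adjusted p = 0.015). In these 3 genes the libraries of 4-6w were all above those of 1-3w in RPM. The same held for 11 of the 18 sperm-type members and for 14.3% of all genes tested.

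Adam24, Adam25 and Adam39 stand in 1 run on the plus strand of chromosome 8. Adam24 (testase 1) had 1, 0, 63, 353, 593 and 612 reads, and its change of 5.32 ± 1.77 missed the threshold at an adjusted p of 0.0518 by edgeR. Adam25 (testase 2) had 0, 0, 33, 239, 285 and 402 reads and was called higher (5.54 ± 1.67, adjusted p = 0.0399). Adam39 had 0, 0, 3, 26, 27 and 41 reads and was called higher as well (5.64 ± 0.91, adjusted p = 0.0113). The coding regions of Adam25 and Adam39 were 95.6% identical over 2283 aligned nt, so the division of reads between the 2 genes is uncertain. Adam26a (testase 3), on the minus strand further along the chromosome, had 0, 0, 23, 112, 142 and 216 reads (5.10 ± 1.46, adjusted p = 0.0349). Its near copy Adam26b, 94.9% identical, had 0, 0, 1, 8, 6 and 16 reads and was below the filter on low counts.

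Under 20 reads in all were found for 3 members. Adam6a, which is 94.9% identical to Adam6b, had 17 reads, all at 4w to 6w. Adam34, which is 90.4% identical to Adam26a, had 3 reads, all at 6w. Adam7, made in the epididymis, had 13 reads, 9 at 2w and 4 at 3w. Epididymal markers were also at their highest in those libraries, with summed levels of 77.9 and 92.5 RPM at 2w and 3w against 0.435 to 14.5 RPM in the other 4, and Crisp1 gave nearly all of it with 325 and 421 reads. The other listed markers were low, with at most 3 reads in any library for Lcn5, Lcn8, Crisp4 and Gpx5. Lcn9 had 0, 0, 0, 1, 3 and 6 reads. The part of epididymal tissue in the Adam7 reads was not tested.

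The week at which a sperm-type member reached its level went with the number of its coding exons. This split was made after the values were seen and is given as a description, with no test. Among the 5 members with more than 1 coding exon, the log2 ratio of RPM at 4w to RPM at 3w ran from -0.49 to 0.33, with a median of -0.24. Among the 11 single-coding-exon members with at least 20 reads, the median was 2.30, and 9 of the 11 were over 1. Adam1b at -0.31 and Adam30 at 0.23 were the exceptions. For 13120 genes with reads at both weeks the median was -0.77, and 10.3% were over 1. On the TMM scale every ratio was higher by the same amount, so that the 5 members with several coding exons ran from 0.26 to 1.07 and the single-coding-exon members from 0.43 to 4.83. The sign of the step therefore turned with the scaling in 4 of the 5 members with several coding exons, and not in Adam3 (0.33 and 1.07), while the distance between the 2 sets did not.

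**Figure D3:**
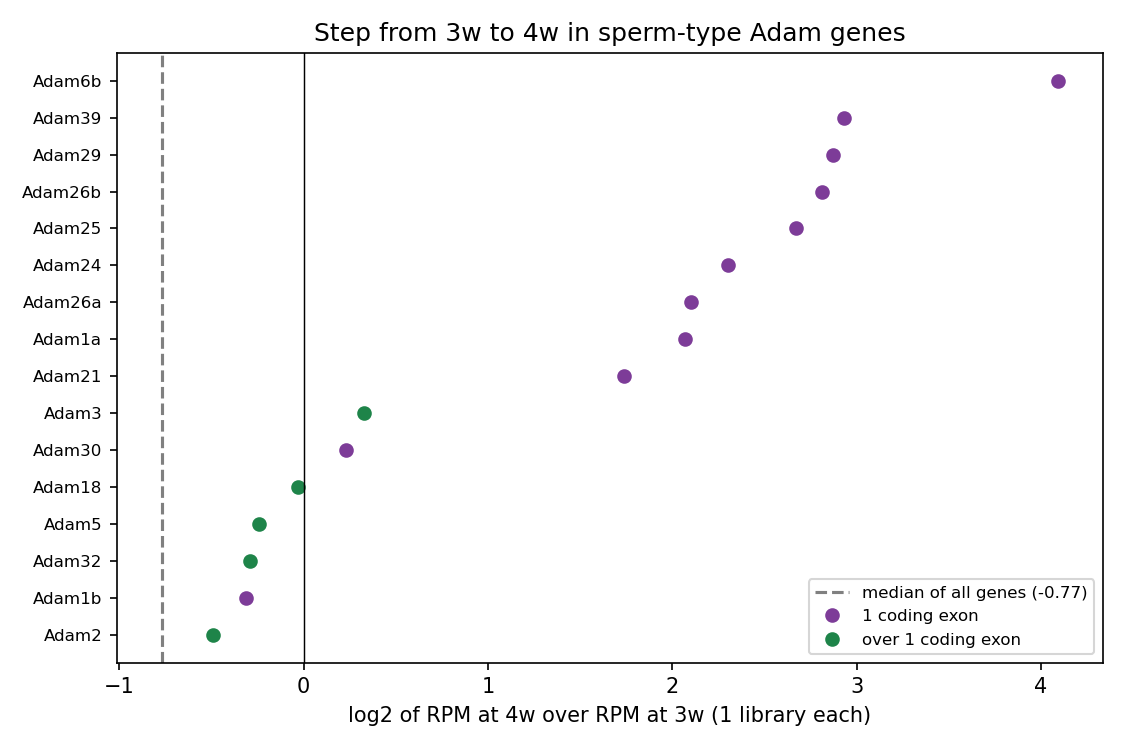
log2 of RPM at 4w over RPM at 3w (x axis, 1 library each) for the 16 sperm-type Adam genes with at least 20 reads, coloured by number of coding exons. Of the single-coding-exon genes, 9 of 11 lie between 1.74 and 4.09; the 5 genes with more coding exons lie between -0.49 and 0.33, and the dashed line is the median of all genes at -0.77.

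Among the widely expressed members, the genes of the main sheddases, Adam10 and Adam17, fell. Adam10 had 250, 177, 68, 23, 13 and 24 reads from 1w to 6w (log2 change -2.08 ± 0.48, adjusted p = 0.0219 by edgeR). Adam17, which encodes the tumour necrosis factor convertase, had 97, 93, 48, 8, 11 and 6 reads (-2.31 ± 0.37, adjusted p = 0.0112). Every 4-6w library of both genes was below every 1-3w library in RPM, a pattern that 60.6% of all genes tested shared on that scale.

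Adam12 and Adam19, meltrins alpha and beta of mesenchymal cells, fell further. Adam12 was the most abundant member at 1w, at 283 RPM, and went through 1301, 515, 91, 43, 18 and 23 reads (-3.52 ± 0.88, adjusted p = 0.026 by edgeR). Adam19 had 71, 40, 20, 5, 3 and 3 reads (-2.60 ± 0.52, adjusted p = 0.0179). The median log2 change was -3.34 over the 5 Sertoli markers and -1.87 over the peritubular and vascular markers tested, and the part of those cells in the loss of Adam12 and Adam19 was not tested.

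The remaining widely expressed members were not called. Adam8, known from leukocytes, had 25, 29, 13, 12, 12 and 17 reads (0.23 ± 0.38), Adam9 had 21, 29, 16, 6, 7 and 11 (-0.53 ± 0.41), and Adam15 had 16, 29, 18, 15, 3 and 4 (-0.65 ± 0.61). Adam11 had 4, 10, 14, 12, 15 and 8 reads (1.16 ± 0.57) and Adam22 had 26, 11, 7, 13, 14 and 18 (0.98 ± 0.49); both encode members without protease activity that are best known from the nervous system. The signs of Adam8, Adam11 and Adam22 turned under scaling by PASS totals, to -1.16, -0.09 and -0.40. On that scale Adam9 was called lower (-1.91, adjusted p = 0.00907 by edgeR), where 54.9% of all genes tested were. Adam23, another member of that neural kind, had 22 reads in all (5, 6, 5, 1, 3 and 2), and Adam33 had 66 (24, 20, 8, 2, 5 and 7), and both were below the filter on low counts.

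Partner genes of the 2 classes were counted from lists, beside the 17.7% of all genes tested that were called higher and the 22.5% called lower. A gene that is high in 1 group only can pass the filter on low counts through that group, so the counts and medians of tested genes describe those genes and not the whole lists. Of 20 genes listed for ADAM3 maturation and the sperm surface, 16 could be tested, 6 were higher, 1 was lower and the median log2 change was 3.24. Prss37, a protease homologue that ADAM3 processing needs, had 5, 0, 6, 466, 908 and 995 reads (8.58 ± 1.14, adjusted p = 0.00734 by edgeR). Calr3, a calreticulin of the testis, rose by 6.84 ± 0.81, the hyaluronidase gene Hyal5 by 5.44 ± 1.70 and Izumo1, which encodes the sperm protein for fusion with the egg, by 4.97 ± 1.02. Clgn, the chaperone calmegin that folds ADAM1 and ADAM2, had the early course of Adam2, with 1, 10, 218, 174, 172 and 161 reads, and was not called (1.84 ± 1.48). The general chaperone Canx was the gene that fell (-0.99 ± 0.25).

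Among the regulators of sheddases 7 fell. Of 17 listed genes 13 could be tested, of which 7 were lower and 0 higher by edgeR, and 0 had a positive change at an unadjusted p under 0.05. DESeq2, which kept the low gene Timp4 (0, 0, 1, 4, 1 and 9 reads), called that 1 listed gene higher. The median was -1.50. Rhbdf2, which encodes the iRhom that carries ADAM17 to the cell surface, had 221, 249, 38, 7, 5 and 6 reads (-3.83 ± 0.70, adjusted p = 0.015 by edgeR). Furin, the convertase that removes the prodomain of ADAM proteins, fell by 2.51 on the log2 scale, Tspan14, a tetraspanin partner of ADAM10, by 2.28, and Timp3, an inhibitor of ADAM17, by 2.22.

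Of 24 listed substrates and integrin partners 14 could be tested, with 7 lower and 1 higher at a median of -1.29. The Kit ligand gene Kitl, a substrate of sheddases in Sertoli cells, had 215, 140, 36, 2, 6 and 3 reads (-4.13 ± 0.74, adjusted p = 0.0147 by edgeR). Notch1 fell by 2.97, Notch2 by 2.80 and the integrin gene Itgb1 by 2.64 on the log2 scale, and the Notch ligand gene Jag1 rose (1.89 ± 0.52, adjusted p = 0.0314). The related Adamts and Adamtsl genes, which encode secreted proteins with a like protease domain or none, numbered 22. Only 7 of them passed the filter on low counts, and all 7 were highest at 1w and were called lower, with Adamts5 at -3.44, Adamtsl2 at -3.25, Adamts12 at -2.95 and Adamts10 at -2.88. The partner lists lost calls without the 5w or the 6w library, where the members lost all of theirs. The maturation list went from 6 genes called higher to 3 in both cases. In the maturation list 3 genes, Calr3, Ace and Prss37, stayed called higher with any library left out, at adjusted p of at most 0.0448 by edgeR. Of the regulators, 0 stayed called lower without 5w and 2 without 6w.

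Last-exon pAs lie in the annotated 3'-most exon, and in the single-coding-exon members that exon holds the whole coding region. Inside it lay 23 of the 46 last-exon pAs of these 13 genes (50%), with 5.55% of their reads. In all genes with 1 coding exon the share was 8.6% of pAs and 0.678% of reads, and in all genes 2.71% of pAs. Of the 13 members 10 had such a pA, against 14.4% of all genes with 1 coding exon. None of the 17 members with more coding exons did, where only 5.43% of all such genes had one. These shares are descriptions, since the pAs of near copies are not independent and these genes include low ones. For 3 members with at least 20 reads, Adam26b, Adam30 and Adam39, the pA with most reads was inside the coding region. In Adam26b and Adam39 the division of reads with the near copies Adam26a and Adam25 is uncertain. The annotation gives Adam26b no 3'UTR. A transcript that ends there has no stop codon.

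**Figure D4:**
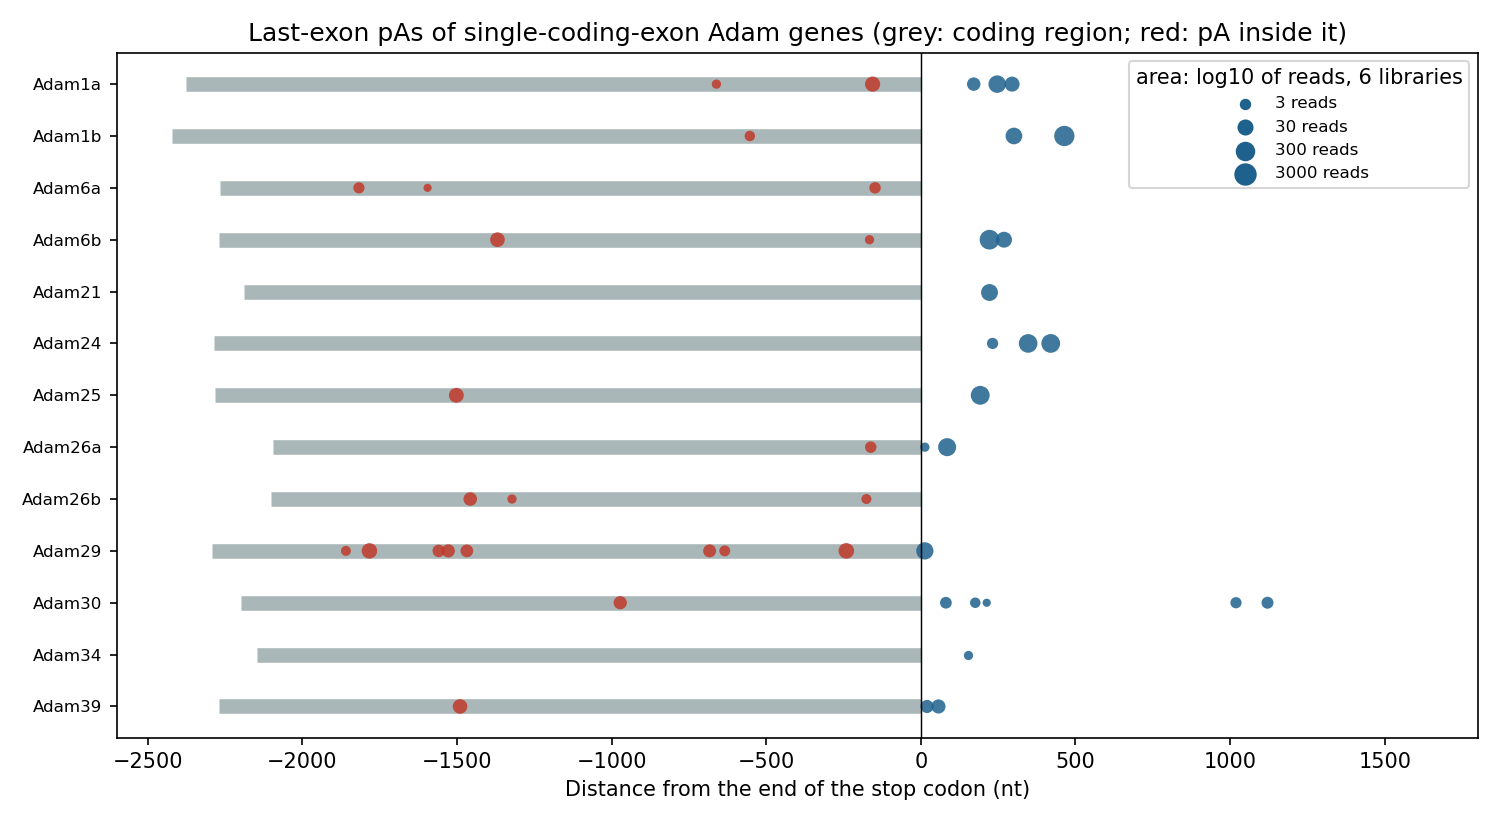
Last-exon pAs of the 13 single-coding-exon Adam genes by distance in nt from the end of the stop codon (x axis), with the coding region in grey, pAs inside it in red and pAs after it in blue. Marker area follows log10 of the reads over the 6 libraries. Adam29 carries 8 pAs inside its coding region and 1 at 13 nt after it.

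Of the 23 pAs, 8 had at least 20 reads, and 6 of those 8 had the polyadenylation signal AATAAA in the 40 nt before them. Of all 23, 11 had it. Among the other last-exon pAs of the family it stood before 24 of 39 with at least 20 reads and 31 of 63 in all. Adam29 had the most pAs of this kind, 8 of its 9. Adam25 and Adam39 shared one at matching places, 1502 and 1490 nt before the end of the stop codon, so that 34.2% and 34.4% of the coding region lay before it. Their windows differed by 1 base, A8G counted from the 5' end of the Adam25 window. The windows below are printed because they carry the signal inside a coding region; each runs 5' to 3' from 34 to 5 nt before the pA on the gene's strand in mm9, with the signal in capitals.
Adam25, chr8:41839799-41839828, plus strand: caccattatcaatatAATAAAtaatattta
Adam39, chr8:41910674-41910703, plus strand: caccattgtcaatatAATAAAtaatattta
Adam29, chr8:58350169-58350198, minus strand: cctcctaaaacaAATAAAaagaaacatttc
Adam29, chr8:58351711-58351740, minus strand: tataaagtggacagtAATAAAacagaatca
Adam6b, chr12:114728643-114728672, plus strand: tatgtgtcagtcttttatAATAAAtttaag
The 20 nt after the 23 pAs held from 1 to 9 A, with a median of 5, against 0 to 8 with a median of 4 at the other 63 last-exon pAs of the family.

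The coding-region pAs took very unequal shares of a gene's reads. In the 4w library 45 of 125 last-exon reads of Adam29 were theirs (36%, 28.1 to 44.7 by the 95% Wilson interval), in the 5w library 72 of 169 (42.6%, 35.4 to 50.1) and in the 6w library 105 of 192 (54.7%, 47.6 to 61.6). In Adam39 the shares of these libraries were 30.8%, 40.7% and 56.1%, on 26, 27 and 41 reads. The intervals of 4w and 6w did not overlap in Adam29 and overlapped in Adam39. In Adam25, whose site has the same signal and place as that of Adam39, the shares were 4.18%, 5.61% and 6.22%. Because the 2 coding regions are 95.6% identical, the division of reads between these sites is uncertain. Adam1a had 9.57%, 10.4% and 17.3% at 4w to 6w, at pAs that also lie within the annotated Mapkapk5 gene on the same strand and cannot be told apart from it. Adam6b had 3.18%, 2.46% and 2.23%. The 3w shares rest on few reads, with 80% of 15 reads in Adam29 (54.8 to 93) and 41.7% of 24 reads in Adam1a (24.5 to 61.2). Intervals here cover counting error only, with 1 library per week and no molecular identifiers, and no test between weeks was possible.

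**Figure D5:**
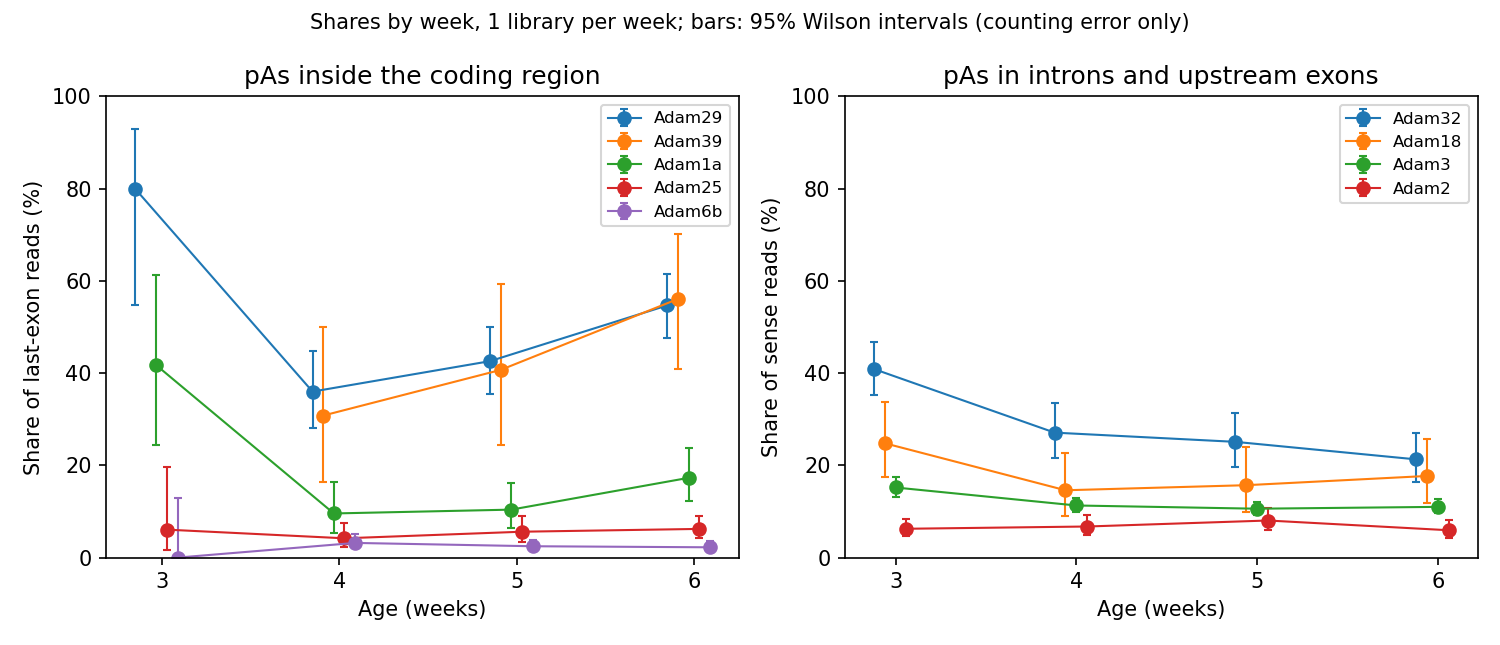
Share of reads in percent (y axis) by age in weeks (x axis) at pAs inside the coding region (left, of last-exon reads) and at pAs in introns and upstream exons (right, of sense reads), for weeks with at least 10 reads; bars are 95% Wilson intervals of counting error. The points of Adam29 climb between the 4w library (36%) and the 6w library (54.7%), and those of Adam32 stand at 40.9% in the 3w and 21.3% in the 6w library.

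The pAs after the stop codon were close to it in the sperm-type members. Of the 16 with at least 20 reads, 13 had their main pA after the stop codon, at 13 to 464 nt with a median of 192 nt by the annotated transcript that ends nearest. In the 11 widely expressed members the main pA stood at 267 to 4743 nt, with a median of 1306 nt. AATAAA or ATTAAA stood in the 40 nt before the main pA in 16 of 18 sperm-type and 11 of 11 widely expressed members, and before that of 77.2% of all genes. The main pA of Adam1b, with 2936 reads, had neither. The following windows, read in the same way, show the main pA of Adam3, the main pA of Adam12 and the 2 pAs between which the reads of Adam24 were divided, and the last is that of Adam1b, with no capitals.
Adam3, chr8:25787709-25787738, minus strand: catgcctccaAATAAAgtctatggctgaca
Adam12, chr7:141074887-141074916, minus strand: agagtattatatccAATAAAcagtaaacag
Adam24 proximal, chr8:41767447-41767476, plus strand: acatttatcattcAATAAAtatgagaacta
Adam24 distal, chr8:41767520-41767549, plus strand: cttacttttctaATTAAAaacttttatgga
Adam1b, chr5:121950110-121950139, minus strand: ctactactgttagacatgttttcaagaccc

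Where a sperm-type member was well covered, its 3'UTR size hardly moved from 3w to 6w. The mean size weighted by reads was 456, 453, 454 and 457 nt for Adam1b, 311, 309, 308 and 310 nt for Adam2, and 390, 387, 381 and 386 nt for Adam24. The distal pA (Dis-pA) of Adam24 took 58.7%, 54.8%, 47.6% and 54.7% of the reads of its 2 main pAs in those weeks. Adam3, Adam5, Adam18, Adam21 and Adam32 had 1 last-exon pA each.

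The test of 3'UTR-APA between the groups asked for 20 reads of the 2 most used last-exon pAs in every library, and no member met that. Over the 4270 genes that did, the Dis-pA was called lower in 34.4% and higher in 1.31%. With no minimum per library, 19 members entered among 9512 genes, and 2 were called, both with a lower Dis-pA, where 23.1% of all genes were called in that direction and 0.957% in the other. The 2 pAs were taken wherever they lay in the last exon. In Adam1a, Adam25, Adam26a, Adam29, Adam30 and Adam39 they included a pA inside the coding region, and in Adam26b both lay there. For those members, none of them called, the ratio is not one of 3'UTR lengths. Adam12, with pAs at 142 and 4743 nt after the stop codon, had a Dis-pA share of 99%, 98.6%, 96.7%, 95.3%, 77.8% and 82.6% from 1w to 6w. The share was 98.8% in 1-3w on 1907 reads and 88.1% in 4-6w on 84 reads (log2 change of the ratio -3.38 ± 0.81, adjusted p = 0.00453 by edgeR). Without the 5w library Adam12 met the minimum of 20 reads and was not called (-2.90 ± 0.95, adjusted p = 0.058). Adam22 went from 51.4% of 37 reads to 5.71% of 35 reads (-3.75 ± 1.18, adjusted p = 0.0269). Adam10, whose 2 main pAs stand 54 nt apart, went the other way, from 78.8% to 96.6%, and was not called (2.48 ± 0.93, adjusted p = 0.0616).

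Sense pAs upstream of the 3'-most exon (CDS-pAs) were found mostly in members with several coding exons. Adam32 had the largest share of those with over 100 reads, at 3 intronic pAs before the stop codon. In the 3w library 112 of 274 sense reads were at its intronic pAs (40.9%, 35.2 to 46.8 by the Wilson interval), and in the later libraries 27.1%, 25.1% and 21.3% (16.5 to 27 in the last). The largest of them, at 25973432 on chromosome 8, had 90, 40, 35 and 31 of these reads. A transcript that ends there lacks the 3' part of the coding region. The share of Adam18 was 24.8% at 3w and 14.6% to 17.7% later, mostly at 2 intronic pAs after the stop codon. In Adam3 it was 15.2% at 3w and 10.6% to 11.3% later, and in Adam2 5.93% to 8.04% from 3w on.

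Most CDS-pA reads of Adam3 leave the coding region whole. Its pAs labelled intronic at 54, 233, 706 and 1216 nt after the stop codon and 1 further downstream lie in an intron of the 3'UTR or in an alternative last exon, and the one at 233 nt had 445 reads. Together they held 14.5% of the sense reads at 3w and 9.92% in 4-6w, and pAs before the stop codon 1.02% in 4-6w. No member reached 20 reads in every library for the test of CDS-APA, which called 20.8% of 2437 genes higher and 4.19% lower. With no minimum per library, 9 members entered, 0 were called by edgeR and 2 had an unadjusted p under 0.05, where 14.7% of 4996 genes were called higher and 3.78% lower. Adam32 fell from 42.1% in 1-3w to 24.4% in 4-6w (log2 change of the ratio -2.06 ± 0.93, adjusted p = 0.133).

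Upstream antisense RNA (uaRNA), which starts near a promoter and runs away from the gene, could be tested for Adam1a and Adam1b. The pA antisense to Adam1a had 4, 36, 52, 321, 337 and 330 reads from 1w to 6w, and was higher at 4-6w (4.11 ± 0.89, adjusted p = 0.0126 by edgeR over 1063 uaRNAs, of which 39.6% were called higher and 2.16% lower). Without the 6w library the change was 4.17 ± 1.06 and was not called (adjusted p = 0.0534). It had more reads than the last-exon pAs of Adam1a in 5 of the 6 libraries, and as many at 1w. The 3 antisense pAs of Adam1b had 72, 3 and 4 reads over all libraries and the gene was not called (2.38 ± 1.21, adjusted p = 0.133). All of these pAs lie inside the annotated Tmem116 gene on the same strand, so that uaRNA and transcripts of Tmem116 cannot be told apart. Without the filter on low counts, where 13.4% of uaRNAs were called higher, Adam11 and Adam6a were called as well, with 0, 0, 0, 4, 11 and 17 reads and with 23 and 5 reads at 2 pAs.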

How the data were processed

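The authors mapped 3'READS reads to mm9 with Bowtie2, kept PASS reads, which start with at least 2 unaligned T, and merged pAs closer than 24 nt; they deposited raw counts of PASS reads per pA for the 6 libraries, with no normalization. Program versions are not given in the sources used here. The members and gene lists were chosen with earlier results of these data known.

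Reads of a gene were summed over last-exon pAs assigned to 1 gene (1053 pAs of several genes were left out), giving 3497870 to 5427850 single-gene reads per library, or 77% to 83.3% of the PASS totals that the study lists and that set the RPM. Groups (1-3w and 4-6w) were compared with edgeR 4.0.16 in R 4.3.3 (TMM, filterByExpr, quasi-likelihood test, Benjamini-Hochberg over all features tested, threshold 0.05), with SE as the log2 change divided by the square root of F. Isoform ratios were tested with a term for each library. The replicates are single libraries of different weeks, so p-values measure the spread between these samples. Simulated libraries had a dispersion of 0.1 for expression and no age difference within a group. On them a log2 change of 2 was recovered in 88.5% of changed genes for expression, and in 54% and 27.5% for the 3'UTR-APA and CDS-APA ratios. Of the calls, 4.32%, 6.9% and 1.79% were false. The libraries here differ in age within a group, so these shares do not give the power of the present comparison. The alternatives were DESeq2 1.42.0, PASS totals, other filters, other pA sets and each library left out. Windows and distances came from the mm9 (NCBIM37) genome and GENCODE vM1, coding identity from blastn 2.17.0. Members with at least 20 reads are given with their values and the others by their totals; from each list up to 4 of the largest called changes each way are named. Adam4, Adam6, Adam20, Adam28, Adam36, Adam37 and Adam38 were not analysed here.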

Additional observations from a re-analysis of the deposited data

How the results depend on the processing

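No paired analysis was possible because the labels give no replicate numbers and each week has 1 library. Of 118 member values recomputed with all libraries under other settings, 112 kept their direction and side of the threshold, 3 gained a call, and 3 reversed under PASS totals: Adam8 to -1.16, Adam11 to -0.09 and Adam22 to -0.40, none of them called. With a library left out, 98 of 144 stayed the same, 37 lost their call and 9 gained one; of the 11 members called, 10 remained called without 1w, 4 without 2w, 11 without 3w, 4 without 4w, 0 without 5w and 0 without 6w. The members called then ranged from 0 to 16 higher and 0 to 4 lower. Over all genes the same fits called from 338 to 4392 higher and from 0 to 4123 lower, of 11512 to 12252 tested. The ranges of members and lists are to be read beside these. For the maturation list they ranged from 3 to 11 higher and 0 to 1 lower, for the sheddase regulators from 0 to 1 and 0 to 8, for substrates and integrin partners from 0 to 2 and 0 to 10, and for the Adamts genes from 0 to 10 lower. The uaRNAs of members called ranged from 0 to 2, where 208 to 1050 uaRNAs of all genes were called higher. No 3'UTR-APA or CDS-APA member was called.

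Under PASS totals the maturation list had 3 lower, the sheddase regulators 11 lower and the substrates 12 lower and 0 higher. In that setting 54.9% of all genes tested were called lower and 9.6% higher. DESeq2 and no filter each called 1 sheddase regulator higher, and all sense pAs gave 2 substrates higher. For 3'UTR-APA, 1 member (Adam12) was called with at least 10 reads per library and 2 with no minimum, since no member could be tested at 20; at 50 none could either. Without the filter 3 uaRNAs were called. The cause of the other moves was not tested. RPM on the reads of the table as total lay outside the counting interval in 49 of 180 values. A minimum of 20 in place of 50 reads for the 3'UTR size gave 73 gene and week pairs in place of 54. Low reads at 1w and 2w limit every fold of a sperm-type gene.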
